A study of Mus musculus with 12 samples.

Results

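The autophagy machinery followed here is a set of 36 mouse genes, named in a fixed list of symbols and found in the deposited count tables by their Entrez identifiers. All 36 were present among the 27179 gene identifiers of each library. All 36 were also among the 12057 genes with enough counts to be tested. They cover the ULK kinase complex (5 genes), the class III PI3-kinase complex (5), ATG9, ATG2 and WIPI proteins (5), the enzymes that conjugate ATG12 and ATG8 (11), the ATG8 proteins (5), cargo receptors (3) and the transcription factors TFEB and TFE3. Their lowest level in any library was 6.40 CPM (counts scaled to the library total and its TMM factor), so none depended on a group with no reads.

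Cells of AML246, a mouse acute myeloid leukemia on the C57BL/6 background that lacks p53 (p53-/-) and carries a hairpin against PU.1 (shPU.1), were taken from the marrow of leukemic recipients. Doxycycline (Dox) given to these mice turned off the GFP-linked hairpin. PU.1, a transcription factor of the myeloid lineage and the product of Spi1, came back over the following days. The 4 groups of 3 libraries each were untreated mice (GFPhigh sort), Dox for 2 days (GFPhigh-mid), Dox for 4 days (GFPmid) and Dox for 6 days (GFPlow). Every group, controls included, was p53-/- shPU.1 AML246. All libraries come from a single leukemia. The GFP gate moved with the days, and no Dox-treated cells without the hairpin were compared, so the gate, the drug, the elapsed time and PU.1 itself cannot be told apart. In the titles the replicates are called technical, and in the series text they are triplicate mice. The p-values therefore measure how far these libraries spread, which may be technical.

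Autophagy carries cytoplasm to the lysosome inside a double membrane. The ULK complex starts the process, and the class III PI3-kinase marks the forming membrane with a lipid that WIPI proteins read. ATG9 and ATG2 supply lipid, and a ubiquitin-like system built around ATG12 attaches ATG8 proteins to the membrane, where cargo receptors dock. In myeloid cells the pathway is known for its part in granulocyte and macrophage maturation and in the turnover of organelles, and TFEB and TFE3 are known to switch on many autophagy and lysosome genes.

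Libraries held 4918920 to 7356166 counts, so 3 counts correspond to 0.408 to 0.610 CPM. Spi1 (Entrez 20375, chr2:91082374-91115759), the hairpin's target, had 54.2, 67.5 and 65.9 CPM in untreated libraries, 107, 98.8 and 123 CPM at day 2, 244, 267 and 269.5 CPM at day 4 and 497, 439 and 438 CPM at day 6. The groups did not overlap in any step, and Spi1 was higher than in untreated libraries by a log2 fold change of 0.81 at day 2 (edgeR adjusted p = 0.0039), 2.06 at day 4 (edgeR adjusted p = 1.28e-07) and 2.87 at day 6 (edgeR adjusted p = 2.79e-09). The make-up of the sorted cells moved as well. The summed level of 10 mature neutrophil markers was 858 to 1918 CPM in untreated libraries, 891 to 1975 CPM at day 2, 2808 to 5180 CPM at day 4 and 63420 to 137900 CPM at day 6. Over the same 4 groups 10 leukemic progenitor markers summed to 29580 to 33330, 23110 to 23960, 13070 to 19710 and 8531 to 10570 CPM. All 10 neutrophil markers were called higher at day 6. Of the 10 progenitor markers 7 were called lower and 1 higher. Sums of other marker lists also differed between groups. The summed level of 7 monocyte markers averaged 6424 CPM in untreated libraries, 6697 at day 2, 10120 at day 4 and 5161 at day 6. The day 6 sums (3919 to 7509 CPM) overlapped with untreated (5387 to 6997 CPM). Taken singly, 5 of the 7 monocyte markers were called higher at day 6 and 1 lower. The sum of 9 macrophage markers averaged 34.5, 51.7, 138 and 234 CPM over the same groups. Eosinophil markers averaged 444 CPM at day 4 (47.9 to 831 over its libraries) against 32.5 CPM untreated, while stromal markers averaged 12.4 CPM and endothelial markers 16.9 CPM at day 6 against 240.5 and 62.5 CPM untreated. Erythroid, B lineage and megakaryocyte lists summed to at most 15.03 CPM in any library. In bulk RNA a change in the share of cells of one kind and a change in RNA per cell cannot be told apart. The part that these shifts in make-up have in the values of the autophagy genes was not tested. Replicate 2 of day 6 stood apart from its group, with a neutrophil marker sum of 63420 CPM against 122100 and 137900 CPM in the other 2 day 6 libraries. The day 6 calls of the autophagy genes and of the other pathway lists are also given without it.

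A gene was called when its p in edgeR's quasi-likelihood test, adjusted by Benjamini-Hochberg over all 12057 genes, was under 0.05. Beside a log2 fold change, ± gives its SE. At day 2, 1 of the 36 autophagy genes was higher than in untreated libraries (Tfe3, against 1.05% of all tested genes). At the same day 1 was lower (Atg12, against 0.406%), and 1.45% of all genes were called in either direction. At day 4, 7 were higher (19.4%, against 22.1% of all tested genes) and 6 were lower (16.7%, against 20.2%). With 42.4% of all genes called in either direction, the autophagy genes were called about as often as genes in general. Without replicate 3 of day 4, 4 were higher and 3 lower. Calls over all genes also fell in that fit, from 2667 higher and 2440 lower to 2173 and 1705. At day 6, 19 were higher (52.8%, against 35% of all tested genes) and 8 were lower (22.2%, against 32.9%), and 9 were called neither way. Without replicate 2 of day 6, 20 were higher and 7 lower. Calls over all genes then rose from 4224 higher and 3967 lower to 4416 and 4237. The median log2 fold change of the 36 was 0.00 at day 2, -0.02 at day 4 and 0.35 at day 6, beside -0.00, -0.01 and -0.00 over all tested genes. The 3 comparisons share the untreated libraries.

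**Figure D1:**
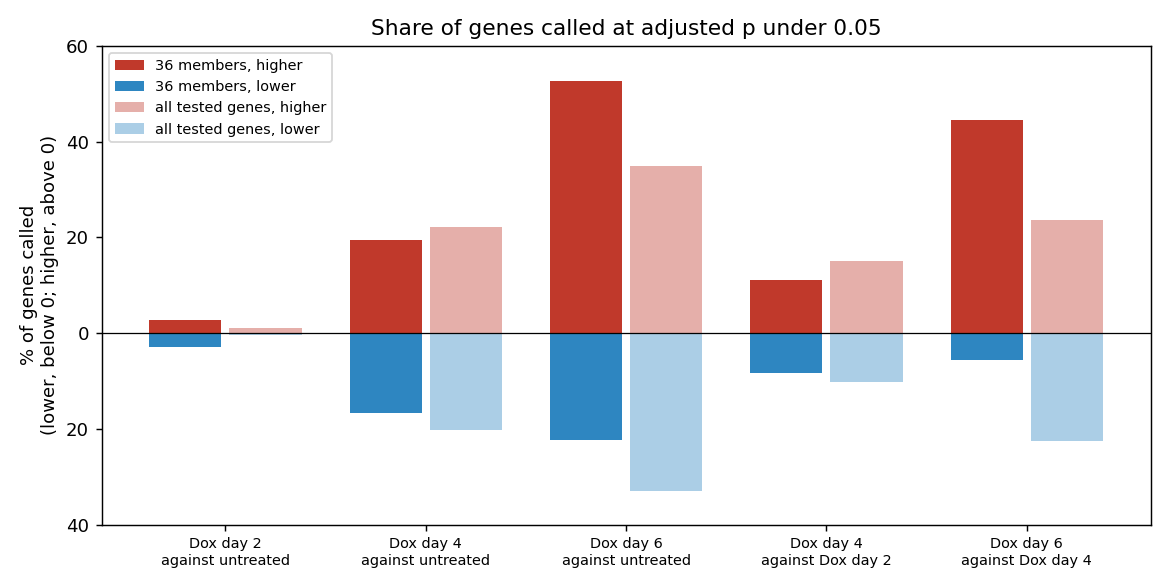
Percentage of the 36 autophagy genes (full colour, left bar of each pair) and of all 12057 tested genes (pale, right bar) called at an edgeR adjusted p under 0.05 in 5 comparisons under TMM scaling, with genes called higher drawn above 0 and genes called lower drawn below 0. At day 6 against untreated 52.8% of the autophagy genes and 35% of all genes were called higher, and for day 6 against day 4 these shares were 44.4% and 23.6%. Under scaling to library totals alone the split of autophagy genes turns to 10 higher and 16 lower at day 6 against untreated, and that of all genes to 18.9% higher and 56.1% lower.

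The direction of this split depends on how the libraries are scaled. The median of all tested genes at day 6 against untreated, -0.00 with TMM factors, moved to -0.25 with upper-quartile factors and to -0.52 with library totals alone. At day 4 it moved to -0.11 and -0.13. At day 6 the autophagy genes then split into 15 higher and 10 lower with upper-quartile factors, beside 26.3% and 44.1% of all tested genes. With library totals they split into 10 higher and 16 lower, beside 18.9% and 56.1% of all genes. At day 4 the splits were 4 higher and 11 lower (18.6% and 26.5% of all genes) with upper-quartile factors and 4 higher and 12 lower (17.3% and 27.0% of all genes) with library totals. A scaling factor moves all genes of a library alike, and the directions below are relative to the bulk of the transcriptome under TMM factors.

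**Figure D2:**
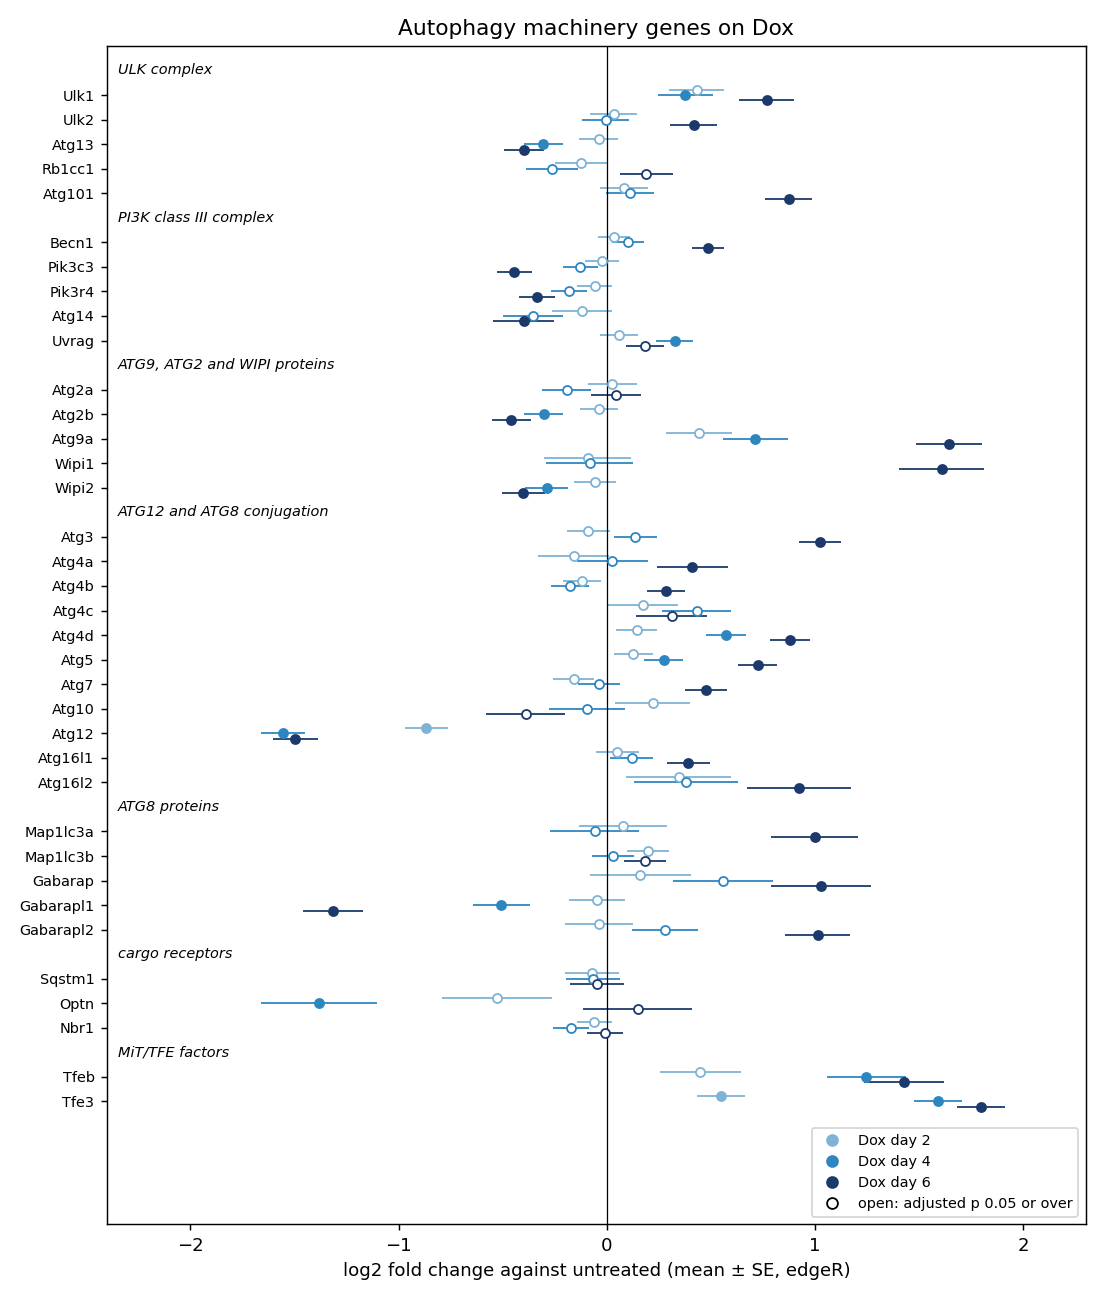
Log2 fold change (x axis, ± SE from edgeR, TMM scaling) of each of the 36 genes at Dox days 2, 4 and 6 against untreated, grouped by role down the page, with filled points for an adjusted p under 0.05 and open points otherwise. Tfe3, Atg9a and Wipi1 lie farthest to the right at day 6 (1.797, 1.64 and 1.61) and Atg12 and Gabarapl1 farthest to the left (-1.50 and -1.32). The day 6 values of Ulk2, Becn1, Atg4a, Atg4b, Atg7 and Atg16l1 are filled here and fall below 0 when libraries are scaled by their totals alone.

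Both transcription factors of the list were higher by day 4. Tfe3 (Entrez 209446, chrX:7762530-7775202), which like TFEB moves to the nucleus when lysosomes or nutrients are limiting, had 25.0, 27.7 and 25.7 CPM in untreated libraries, 37.8, 44.7 and 32.8 CPM at day 2, 73.2, 76.7 and 86.3 CPM at day 4 and 94.3, 91.8 and 86.5 CPM at day 6. Each Dox group lay above the untreated libraries, and the day 6 libraries also lay above those of day 4. Its log2 fold change was 0.55 ± 0.12 at day 2 (edgeR adjusted p = 0.0369), 1.59 ± 0.11 at day 4 (edgeR adjusted p = 8.66e-07) and 1.797 ± 0.11 at day 6 (edgeR adjusted p = 6.56e-08). The call at day 2 was lost when any untreated library, replicate 1 or 2 of day 2 or replicate 2 of day 4 was left out (adjusted p up to 0.173). Tfeb (Entrez 21425, chr17:47737037-47792416), which encodes the best studied activator of lysosome and autophagy genes, had 25.9, 21.0 and 34.5 CPM in untreated libraries, 46.0, 38.3 and 27.3 CPM at day 2, 59.9, 64.2 and 69.3 CPM at day 4 and 74.2, 67.3 and 77.5 CPM at day 6. Day 2 overlapped with untreated and days 4 and 6 did not. Its log2 fold change was 0.45 ± 0.19 at day 2 (edgeR adjusted p = 0.317), 1.25 ± 0.19 at day 4 (edgeR adjusted p = 0.000282) and 1.43 ± 0.19 at day 6 (edgeR adjusted p = 3.28e-05). Most of the gain of both genes fell between day 2 and day 4, where Tfe3 differed by 1.04 ± 0.11 (edgeR adjusted p = 6.29e-05) and Tfeb by 0.80 ± 0.19 (edgeR adjusted p = 0.00866) on the log2 scale. Between day 4 and day 6 neither passed the test.

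**Figure D3:**
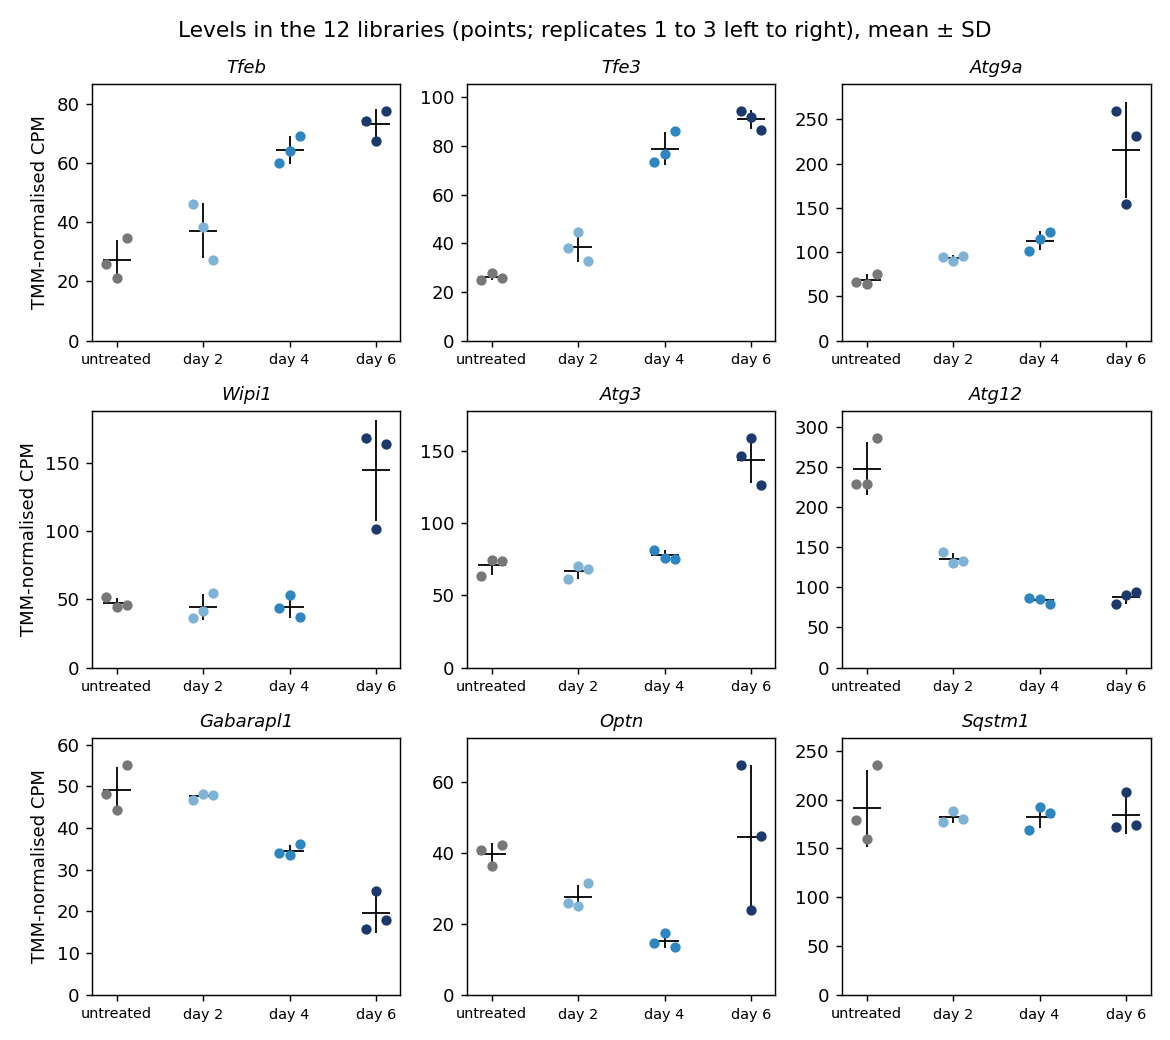
TMM-normalised CPM (y axis, from 0) of 9 autophagy genes in the 12 libraries, as points by group in the order untreated, day 2, day 4 and day 6, with the mean as a horizontal mark and the SD as a vertical line. Tfeb and Tfe3 climb by day 4, Atg9a at days 4 and 6, Wipi1 and Atg3 at day 6. Atg12 is lower from day 2 and Gabarapl1 from day 4. Optn has its lowest points at day 4, and Sqstm1 stays between 160 and 235 CPM.

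In the ULK complex, which starts autophagosome formation, 1 of 5 genes was higher and 1 lower at day 4, beside 22.1% and 20.2% of all tested genes. At day 6, 3 were higher and 1 lower (beside 35% and 32.9% of all tested genes; 4 and 1 without replicate 2 of day 6), although Ulk2 fell below 0 (-0.11) with library totals as the scaling. Ulk1, the main kinase of the complex, averaged 51.9 ± 3.73 CPM at day 4 and 68.2 ± 8.90 CPM at day 6, against 39.98 ± 7.03 CPM in untreated libraries (SD, n = 3 each). It was higher at day 4 (log2 fold change 0.38 ± 0.13, edgeR adjusted p = 0.036) and at day 6 (log2 fold change 0.77 ± 0.13, edgeR adjusted p = 0.000223). The call of day 4 was lost with upper-quartile factors, with library totals, and without replicate 2 of untreated or replicate 2 or 3 of day 4. Its paralog Ulk2 was higher at day 6 only (75.2 ± 9.92 CPM, against 56.2 ± 3.09 CPM untreated; log2 fold change 0.42 ± 0.11, edgeR adjusted p = 0.00546). Atg101 (Entrez 68118, chr15:101284301-101290947), which stabilises ATG13 in the complex, had the largest day 6 difference of the 5, with 86.0 ± 14.2 CPM at day 6 against 46.8 ± 2.59 CPM in untreated libraries (log2 fold change 0.87 ± 0.11, edgeR adjusted p = 2.31e-05). Its partner Atg13 went the other way and was lower at day 4 (45.8 ± 1.78 CPM, against 56.6 ± 3.16 CPM untreated; log2 fold change -0.30 ± 0.09, edgeR adjusted p = 0.0195) and at day 6 (42.9 ± 2.78 CPM; log2 fold change -0.40 ± 0.09, edgeR adjusted p = 0.00242). The day 4 call of Atg13 was lost without replicate 1 or 3 of untreated or of day 4 (edgeR adjusted p up to 0.0621). Rb1cc1, the large scaffold known as FIP200, had 115.4, 84.2 and 124 CPM at day 6 against 98.7, 98.3 and 86.2 CPM in untreated libraries, so the groups overlapped (log2 fold change 0.19 ± 0.13, edgeR adjusted p = 0.195). Without replicate 2 of day 6 its log2 fold change was 0.34 (edgeR adjusted p = 0.00319).

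The class III PI3-kinase complex moved in both directions at day 6, when 1 of 5 genes was higher and 3 were lower (beside 35% and 32.9% of all tested genes; 1 and 2 without replicate 2 of day 6). Becn1, the regulatory subunit Beclin 1, averaged 124 ± 3.98 CPM at day 6 against 88.5 ± 4.72 CPM in untreated libraries (log2 fold change 0.49 ± 0.08, edgeR adjusted p = 0.000113), a difference that came to -0.03 with library totals. Pik3c3, the lipid kinase VPS34 itself, averaged 51.3 ± 2.69 CPM at day 6 against 69.8 ± 2.83 CPM untreated (log2 fold change -0.44 ± 0.08, edgeR adjusted p = 0.000481). Pik3r4, the VPS15 subunit that anchors the kinase, averaged 32.6 ± 2.41 CPM against 41.1 ± 0.876 CPM untreated (log2 fold change -0.33 ± 0.09, edgeR adjusted p = 0.00444). The kinase and its anchor were thus lower while Beclin 1 was higher, and no day 6 library of these 3 genes fell within the untreated range. Atg14, which directs the complex to forming autophagosomes, had 29.4, 22.8 and 22.6 CPM at day 6 against 27.6, 33.8 and 37.1 CPM untreated. Those libraries overlapped, and the lower call (log2 fold change -0.40 ± 0.15, edgeR adjusted p = 0.0275) was lost without replicate 2 of day 6 (log2 fold change -0.34, edgeR adjusted p = 0.0698). It was also lost without replicate 3 of day 6 or replicate 2 or 3 of untreated (edgeR adjusted p up to 0.111). Uvrag, which replaces ATG14 in the endosomal form of the complex, was higher at day 4 only (124 ± 11.1 CPM, against 98.7 ± 3.28 CPM untreated; log2 fold change 0.33 ± 0.09, edgeR adjusted p = 0.0111). That call was lost without replicate 3 of day 4 (edgeR adjusted p = 0.0560), and under both other scalings (upper-quartile factors, library totals). At day 6 Uvrag had 112 ± 8.79 CPM (log2 fold change 0.18 ± 0.09, edgeR adjusted p = 0.0857).

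Of the ATG9, ATG2 and WIPI genes, 2 of 5 were higher and 2 lower at day 6 (beside 35% and 32.9% of all tested genes, and the same counts without replicate 2 of day 6). The 2 higher ones were among the 3 strongest rises of all 36 genes. Atg9a (Entrez 245860, chr1:75180861-75192010), which encodes the lipid scramblase carried on the vesicles that seed the membrane, had 66.7, 64.3 and 75.4 CPM in untreated libraries, 94.5, 90.4 and 95.8 CPM at day 2, 101, 115.0 and 122 CPM at day 4 and 259, 155 and 231 CPM at day 6. Every Dox group lay above the untreated libraries and each later group above the one before it. The log2 fold change was 0.44 ± 0.16 at day 2, which did not pass the test (edgeR adjusted p = 0.216), 0.71 ± 0.16 at day 4 (edgeR adjusted p = 0.00311) and 1.64 ± 0.16 at day 6 (edgeR adjusted p = 1.96e-06). Without replicate 2 of day 6 the day 2 difference was called (log2 fold change 0.45, edgeR adjusted p = 0.0113) and that of day 6 was 1.83. That fit called more genes in general at day 2, 378 higher and 225 lower, against 126 and 49 with all libraries. Wipi1 (Entrez 52639, chr11:109573521-109611389), a reader of the lipid made by VPS34, had 51.8, 44.3 and 45.8 CPM in untreated libraries, 36.5, 41.4 and 54.9 CPM at day 2, 43.7, 53.1 and 37.3 CPM at day 4 and 168, 102 and 164 CPM at day 6. The first 3 groups overlapped, and all day 6 libraries lay above them (log2 fold change 1.61 ± 0.21, edgeR adjusted p = 2.52e-05 against untreated; log2 fold change 1.69 ± 0.21, edgeR adjusted p = 6.89e-05 against day 4). Wipi2, the WIPI protein that recruits ATG16L1, was lower at day 4 (53.6 ± 2.26 CPM, against 65.5 ± 3.43 CPM untreated; log2 fold change -0.29 ± 0.10, edgeR adjusted p = 0.0393) and at day 6 (49.7 ± 5.77 CPM; log2 fold change -0.40 ± 0.10, edgeR adjusted p = 0.00437), so the 2 WIPI genes differed in direction at day 6. The day 4 call of Wipi2 was lost in 6 of the 12 fits that left out a library (edgeR adjusted p up to 0.116). Atg2b, one of the pair of lipid transfer proteins that bridge membranes, was lower at day 4 (78.0 ± 2.28 CPM, against 96.2 ± 7.99 CPM untreated; log2 fold change -0.30 ± 0.09, edgeR adjusted p = 0.0189) and at day 6 (70.0 ± 7.85 CPM; log2 fold change -0.46 ± 0.09, edgeR adjusted p = 0.000812). Its day 4 call was lost without replicate 2 of untreated or replicate 2 or 3 of day 4 (edgeR adjusted p up to 0.0804). Its paralog Atg2a was not called at any day and had 90.8 ± 15.9 CPM at day 6 against 87.9 ± 9.06 CPM untreated (log2 fold change 0.04, edgeR adjusted p = 0.761).

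Among the 11 genes of the 2 conjugation systems 8 were higher and 1 lower at day 6 (beside 35% and 32.9% of all tested genes; 7 and 1 without replicate 2 of day 6). Of these, Atg4a, Atg4b, Atg7 and Atg16l1 turned to values between -0.24 and -0.04 with library totals. Atg12 (Entrez 67526, chr18:46732417-46741724), the ubiquitin-like protein that is joined to ATG5, was the exception and had 228, 229 and 285 CPM in untreated libraries, 144, 131 and 132 CPM at day 2, 87.2, 85.7 and 79.4 CPM at day 4 and 78.7, 89.8 and 94.5 CPM at day 6. Every Dox group lay below the untreated libraries, and day 4 and day 6 lay below day 2. Its log2 fold change was -0.87 ± 0.10 at day 2 (edgeR adjusted p = 0.00177), -1.56 ± 0.11 at day 4 (edgeR adjusted p = 6.72e-07) and -1.50 ± 0.11 at day 6 (edgeR adjusted p = 1.52e-07). Day 6 did not differ from day 4 beyond the spread (log2 fold change 0.06 ± 0.11, edgeR adjusted p = 0.666). Atg5 (Entrez 11793, chr10:44268322-44364299), to which ATG12 is joined, was higher instead, with 55.9 ± 3.44 CPM at day 4 and 76.5 ± 6.97 CPM at day 6 against 46.2 ± 3.16 CPM untreated. It was higher at day 6 (log2 fold change 0.72 ± 0.09, edgeR adjusted p = 2.21e-05), and the call of day 4 (log2 fold change 0.27 ± 0.09, edgeR adjusted p = 0.0333) was lost with upper-quartile factors, with library totals, and without replicate 1 or 3 of untreated or replicate 2 or 3 of day 4. Atg10, the enzyme that transfers ATG12 to ATG5, had 7.46, 8.68 and 7.42 CPM at day 6 against 9.36, 10.7 and 10.9 CPM untreated and was not called (log2 fold change -0.39 ± 0.19, edgeR adjusted p = 0.084).

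Atg3 (Entrez 67841, chr16:45158829-45188538), the enzyme that transfers ATG8 proteins to lipid, had 63.5, 74.8 and 74.1 CPM in untreated libraries, 61.1, 70.7 and 68.2 CPM at day 2, 81.8, 76.2 and 75.6 CPM at day 4 and 147, 159 and 126 CPM at day 6. All day 6 libraries lay above all other libraries (log2 fold change 1.02 ± 0.10, edgeR adjusted p = 2.53e-06 against untreated; log2 fold change 0.89 ± 0.10, edgeR adjusted p = 3.66e-05 against day 4). Atg7 (Entrez 74244, chr6:114643127-114860604), the activating enzyme shared by both systems, averaged 116 ± 8.52 CPM at day 6 against 83.6 ± 10.6 CPM untreated (log2 fold change 0.48 ± 0.10, edgeR adjusted p = 0.000987; -0.04 with library totals). Atg16l1, which places the ATG12 and ATG5 conjugate on the membrane, averaged 35.6 ± 3.23 CPM at day 6 against 27.1 ± 0.963 CPM untreated (log2 fold change 0.39 ± 0.10, edgeR adjusted p = 0.0047; -0.13 with library totals). The paralog Atg16l2 (Entrez 73683, chr7:101286325-101302267) was among the least abundant members, with 7.80, 6.40 and 7.76 CPM in untreated libraries, 11.5, 9.70 and 6.82 CPM at day 2, 8.10, 11.1 and 9.39 CPM at day 4 and 19.2, 11.2 and 11.5 CPM at day 6. Its day 6 libraries lay above the untreated ones but overlapped with day 2 (log2 fold change 0.92 ± 0.25, edgeR adjusted p = 0.00541). The ATG4 proteases, which process ATG8 proteins before and after their attachment, moved to different degrees. Atg4d (Entrez 235040, chr9:21265205-21274837) had 30.6, 28.9 and 33.0 CPM in untreated libraries, 35.8, 36.8 and 29.9 CPM at day 2, 47.3, 46.1 and 44.5 CPM at day 4 and 58.2, 56.6 and 55.8 CPM at day 6. Both later groups lay above all untreated and day 2 libraries (log2 fold change 0.57 ± 0.10, edgeR adjusted p = 0.000541 at day 4; log2 fold change 0.88 ± 0.10, edgeR adjusted p = 5.63e-06 at day 6). Atg4b averaged 71.2 ± 4.89 CPM at day 6 against 58.5 ± 2.98 CPM untreated (log2 fold change 0.28 ± 0.09, edgeR adjusted p = 0.0147; -0.24 with library totals), a call lost without replicate 1 of untreated or of day 6 (edgeR adjusted p up to 0.0610). Atg4a averaged 11.3 ± 0.525 CPM against 8.49 ± 1.71 CPM untreated, and its call (log2 fold change 0.41 ± 0.17, edgeR adjusted p = 0.0446; -0.10 with library totals) was lost in 10 of the 12 fits that left out a library. Atg4c, with 22.2 ± 4.58 CPM at day 6 against 18.0 ± 3.64 CPM untreated, was not called at day 6 (log2 fold change 0.31 ± 0.17, edgeR adjusted p = 0.119) or at day 4 (log2 fold change 0.43 ± 0.17, edgeR adjusted p = 0.052).

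TFEB and TFE3 bind an E-box, written CACGTG, and the RefSeq promoter windows (GRCm38.p6, the 250 bases upstream of a transcript start) were searched for it on both strands. Windows (36 in all) were given for 30 of the 36 genes, and 3 of the 30 genes (10%) held the motif, Atg3, Atg5 and Atg7, beside 6.86% of 27025 genes. These 3 are conjugation genes that were higher at day 6, and they are printed with the motif in capitals. The other genes higher at day 6 that had a window held no match. They were Ulk1, Ulk2, Atg101, Atg9a, Wipi1, Atg4a, Atg4b, Atg4d, Atg16l2, Gabarap, Gabarapl2, Tfe3 and Tfeb. Atg9a is shown beside Atg3, Atg5 and Atg7 as the member with the strongest rise after Tfe3 and without a match. Each is written 5′ to 3′ on the strand of its gene and ends at the base before the start.
Atg3 promoter, chr16:45158579-45158828, plus strand: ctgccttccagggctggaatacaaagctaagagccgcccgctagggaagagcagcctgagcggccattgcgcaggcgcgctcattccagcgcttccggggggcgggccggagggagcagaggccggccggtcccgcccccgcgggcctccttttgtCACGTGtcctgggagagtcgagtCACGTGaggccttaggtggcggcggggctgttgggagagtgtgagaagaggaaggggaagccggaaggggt.
Atg5 promoter, chr10:44268089-44268338, plus strand: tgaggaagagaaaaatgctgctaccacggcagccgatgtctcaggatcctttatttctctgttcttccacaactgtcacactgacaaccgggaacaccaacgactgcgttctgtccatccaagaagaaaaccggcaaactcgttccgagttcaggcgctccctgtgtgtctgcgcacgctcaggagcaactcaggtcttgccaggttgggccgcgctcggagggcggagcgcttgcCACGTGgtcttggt.
Atg7 promoter, chr6:114670846-114671095, plus strand: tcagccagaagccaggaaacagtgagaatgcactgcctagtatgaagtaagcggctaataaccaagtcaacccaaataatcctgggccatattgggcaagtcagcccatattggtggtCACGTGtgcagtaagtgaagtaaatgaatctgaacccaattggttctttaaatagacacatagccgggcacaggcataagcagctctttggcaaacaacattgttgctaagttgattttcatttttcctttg.
Atg9a promoter, chr1:75192011-75192260, minus strand: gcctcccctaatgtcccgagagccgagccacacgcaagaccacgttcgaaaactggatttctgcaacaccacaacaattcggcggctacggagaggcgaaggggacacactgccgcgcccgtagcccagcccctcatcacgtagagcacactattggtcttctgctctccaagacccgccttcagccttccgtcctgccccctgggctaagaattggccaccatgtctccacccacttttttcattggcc.
The motif starts 94 and 71 bases before the Atg3 start, 14 bases before that of Atg5 and 132 bases before that of Atg7. The Atg5 and Atg7 windows belong to starts inside the span that RefSeq gives the gene. The longer form TCACGTG (on the other strand CACGTGA), which contains the E-box, was in 2 of the 30 genes (6.67%, Atg3 and Atg7) and in 3.58% of genes. The PU.1 box GAGGAAGT (on the other strand ACTTCCTC) was in 0 of 30 and in 2.79% of genes. A match describes letters in these windows and is not a measured binding site.

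**Figure D4:**
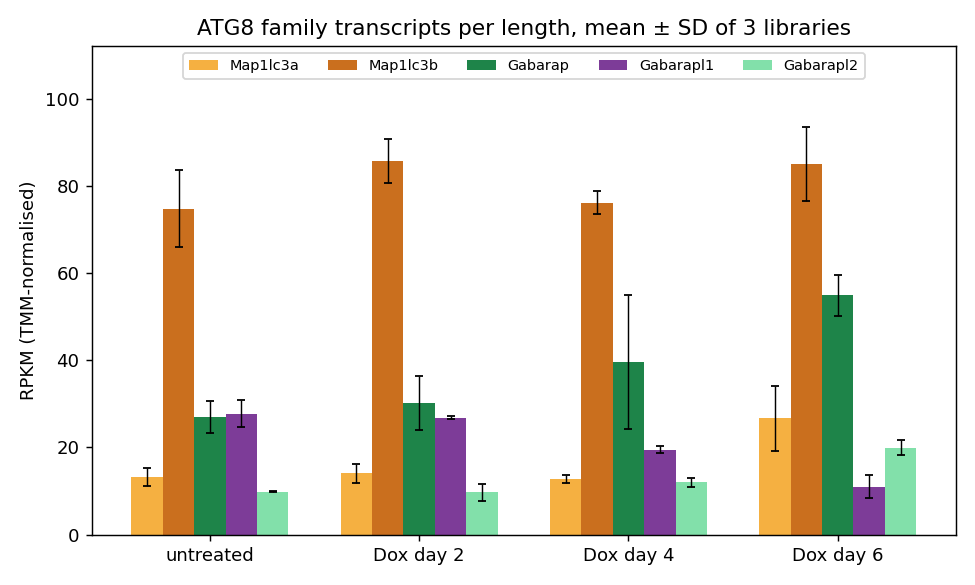
RPKM (y axis, TMM-normalised CPM per kilobase, from 0) of the 5 ATG8 genes in untreated cells and at Dox days 2, 4 and 6, as the mean of 3 libraries with SD bars. Map1lc3b is the tallest bar of each group (74.7 untreated and 85.0 at day 6), Gabarapl1 shortens at days 4 and 6. Map1lc3a, Gabarap and Gabarapl2 are at their tallest at day 6.

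The ATG8 proteins, which coat the autophagosome and hold cargo receptors, did not move together. At day 6, 3 of the 5 genes were higher, by log2 fold changes between 1.00 and 1.03, and 1 was lower (beside 35% and 32.9% of all tested genes, and the same counts without replicate 2 of day 6). Gabarapl1 (Entrez 57436, chr6:129533192-129542331) had 48.1, 44.3 and 55.0 CPM in untreated libraries, 46.8, 48.1 and 47.8 CPM at day 2, 33.9, 33.5 and 36.3 CPM at day 4 and 15.8, 24.9 and 18.0 CPM at day 6. Day 2 overlapped with untreated, while day 4 and then day 6 lay below all earlier groups (log2 fold change -0.51 ± 0.14, edgeR adjusted p = 0.0103 at day 4; log2 fold change -1.32 ± 0.14, edgeR adjusted p = 5.47e-06 at day 6). Gabarap (Entrez 56486, chr11:69991370-69994949) had 34.9, 28.3 and 27.4 CPM in untreated libraries, 29.8, 41.9 and 30.02 CPM at day 2, 28.2, 42.6 and 62.5 CPM at day 4 and 58.6, 67.7 and 58.4 CPM at day 6. Its day 4 libraries spread over more than 2-fold and were not called, and its day 6 libraries lay above all untreated ones (log2 fold change 1.03 ± 0.24, edgeR adjusted p = 0.00234). Gabarapl2 (Entrez 93739, chr8:111940703-111952915) had 9.64, 9.74 and 9.63 CPM in untreated libraries, 7.59, 11.5 and 9.31 CPM at day 2, 10.9, 12.8 and 11.4 CPM at day 4 and 18.3, 18.8 and 21.5 CPM at day 6. Day 6 lay above every other group (log2 fold change 1.01 ± 0.16, edgeR adjusted p = 9.57e-05). Map1lc3a (Entrez 66734, chr2:155276364-155278073), which encodes LC3A, had 12.9, 10.7 and 14.8 CPM in untreated libraries, 15.6, 13.7 and 11.3 CPM at day 2, 12, 13.3 and 11.6 CPM at day 4 and 29.6, 17.5 and 30.1 CPM at day 6. Its day 6 libraries lay above all others, with replicate 2 the lowest of them (log2 fold change 1.00 ± 0.21, edgeR adjusted p = 0.000952; 1.22 without that replicate). Map1lc3b, which encodes LC3B, the usual marker protein of autophagosomes, had 162, 138 and 136 CPM at day 6 against 125, 114.6 and 144 CPM untreated and was not called at any day (log2 fold change 0.19 ± 0.10, edgeR adjusted p = 0.121 at day 6; -0.33 with library totals).

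Per length of transcript, the 5 ATG8 genes summed to 152.5 ± 13.5 RPKM (CPM per kilobase, SD, n = 3) in untreated libraries, 166 ± 13.2 at day 2, 160.0 ± 18.4 at day 4 and 198 ± 6.81 at day 6. Map1lc3b made up 48.9% ± 1.96 of this sum in untreated libraries and 43.0% ± 2.79 at day 6. Gabarapl1 made up 18.1% ± 0.633, 16.2% ± 1.08, 12.3% ± 1.13 and 5.61% ± 1.52 from untreated to day 6, and Gabarap 17.7% ± 2.69, 18.0% ± 2.19, 24.2% ± 6.80 and 27.8% ± 3.08. Gabarapl1 and Gabarap were thus near level in untreated cells, while at day 6 the lowest Gabarap share (25.5%) lay above the highest Gabarapl1 share (7.30%).

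None of the 3 cargo receptors was called at day 6, beside 67.9% of all tested genes called in either direction. Sqstm1, which encodes p62 and links ubiquitinated cargo to ATG8 proteins, had 179, 159.5 and 235 CPM in untreated libraries, 177, 188 and 179.7 CPM at day 2, 169, 192 and 186 CPM at day 4 and 172, 208 and 174 CPM at day 6. The 4 groups overlapped (log2 fold change -0.05 at day 6, edgeR adjusted p = 0.754; -0.16 to 0.13 over the fits that left out a library). Nbr1, a receptor that works with p62, averaged 142 ± 9.58 CPM at day 6 against 143 ± 4.20 CPM untreated (log2 fold change -0.01 ± 0.09, edgeR adjusted p = 0.923). Optn, which encodes optineurin, a receptor for mitochondria and bacteria, took a different course, with 40.7, 36.3 and 42.2 CPM in untreated libraries, 25.8, 25.1 and 31.6 CPM at day 2, 14.7, 17.5 and 13.5 CPM at day 4 and 64.6, 23.9 and 44.7 CPM at day 6. Day 2 and then day 4 lay below the groups before them, and the day 6 libraries spread on both sides of the untreated range. Optn was lower at day 4 (log2 fold change -1.38 ± 0.28, edgeR adjusted p = 0.0021) and was higher at day 6 than at day 4 (log2 fold change 1.53 ± 0.28, edgeR adjusted p = 0.0011). Against untreated, day 6 gave 0.15 ± 0.26 (edgeR adjusted p = 0.633) with all libraries and 0.46 (edgeR adjusted p = 0.0166) without replicate 2 of day 6.

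Of the 3 steps in time, the one from day 4 to day 6 held the most calls, among the autophagy genes as among all tested genes. Between day 2 and day 4, 4 genes were higher (Tfe3, Tfeb, Atg4d and Uvrag; 11.1%, against 15% of all tested genes) and 3 lower (Atg12, Optn and Gabarapl1; 8.33%, against 10.2%), beside 25.2% of all genes in either direction. With any 1 of the 6 libraries of these groups left out, Atg12 alone was called lower, Optn having an adjusted p up to 0.143 and Gabarapl1 up to 0.102 in edgeR. Uvrag lost its call in 5 of those 6 fits and under both other scalings. Over all genes those 6 fits called 1268 to 1627 higher and 581 to 1050 lower, against 1812 and 1230 with all libraries. Between day 4 and day 6, 16 were higher (44.4%, against 23.6%) and 2 lower (Gabarapl1 and Pik3c3; 5.56%, against 22.6%), beside 46.3% of all genes in either direction. The median log2 fold change of this step was 0.29 for the 36 genes and -0.03 for all tested genes. The later step split into 11 higher and 6 lower with upper-quartile factors (17.3% and 32.8% of all genes). With library totals it split into 6 higher and 14 lower (11% and 51.9% of all genes), with Ulk1, Becn1, Atg16l1 and Atg4d then between -0.13 and -0.01. In that step the calls of Atg16l1, Ulk1, Atg4d and Rb1cc1 were each lost without at least 2 single libraries (edgeR adjusted p up to 0.157). Of the 16 genes, 14 had no call in an earlier step: Ulk1, Ulk2, Rb1cc1, Atg101, Becn1, Atg9a, Wipi1, Atg3, Atg4b, Atg5, Atg7, Atg16l1, Map1lc3a and Gabarapl2. The other 2 were Atg4d, already higher from day 2 to day 4, and Optn. Day 6 set against day 2 gave 20 higher (55.6%, against 32% of all tested genes) and 8 lower (22.2%, against 30%), beside 62% of all genes in either direction.

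Over the 4 groups together 29 of the 36 genes differed (80.6%, against 68.7% of all tested genes by the same test). Against untreated, 7 were not called on any day, Rb1cc1, Atg2a, Atg4c, Atg10, Map1lc3b, Sqstm1 and Nbr1. Rb1cc1 of these passed the test over all groups (edgeR adjusted p = 0.0317), and Atg14, called at day 6, did not (edgeR adjusted p = 0.0684). Levels compared between genes are given per length. In untreated libraries Atg12 (99.3 ± 13.2 RPKM), Sqstm1 (95.6 ± 19.6 RPKM) and Map1lc3b (74.7 ± 8.80 RPKM) stood highest, and the first 2 did not differ beyond their SD. At day 6 the order was led by Sqstm1 (92.3 ± 10.1 RPKM), Map1lc3b (85.0 ± 8.40 RPKM), Wipi1 (79.5 ± 20.5 RPKM), Atg3 (71.5 ± 8.17 RPKM) and Atg101 (69.9 ± 11.6 RPKM), neighbours whose SDs overlapped, and Atg12 had 35.2 ± 3.26 RPKM.

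Replicate 2 of day 6 gave the lowest of the 3 day 6 values in 13 of the 19 genes called higher at day 6 and the highest in 3 of the 8 called lower. Without it, 18 of the 19 stayed higher (Atg4a did not), 7 of the 8 stayed lower (Atg14 did not), and Rb1cc1 and Optn were called higher as well. Calls over all genes also rose without it, from 4224 higher and 3967 lower to 4416 and 4237. Among the 12 genes with the largest day 6 change, the log2 fold change without it was 1.789 for Tfe3, 1.83 for Atg9a, 1.81 for Wipi1, 1.48 for Tfeb, -1.51 for Atg12 and -1.54 for Gabarapl1. It was 0.95 for Gabarap, 0.95 for Atg3, 1.04 for Gabarapl2, 1.22 for Map1lc3a, 1.06 for Atg16l2 and 0.88 for Atg4d. The neutrophil marker sums of the day 6 libraries were also lowest in replicate 2, and whether the 2 patterns are linked was not tested.

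Some values rest on shared sequence, and the strand setting of the counting is not given in the sources used here. Atg4d shares 1405 exon bases with Kri1 on the opposite strand. Kri1 had 55.3 ± 6.98 CPM at day 6 against 47.0 ± 1.69 CPM untreated (log2 fold change 0.23 ± 0.11, edgeR adjusted p = 0.0757). Kri1 was called higher at day 6 against day 4 (log2 fold change 0.43 ± 0.11, edgeR adjusted p = 0.0066) and against day 2 (log2 fold change 0.54 ± 0.11, edgeR adjusted p = 0.000958). Exon bases are also shared on the opposite strand by Sqstm1 and Mrnip (580), Gabarapl1 and 1700101I11Rik (570) and Atg2b and Gskip (383). At day 6 against untreated Gskip was higher (log2 fold change 0.48 ± 0.11, edgeR adjusted p = 0.00171) and Mrnip lower (log2 fold change -0.88 ± 0.25, edgeR adjusted p = 0.00702). Becn1 shares exon bases with Cntd1, whose level was 1.36 ± 1.11 CPM at day 6 and 1.42 ± 0.876 CPM untreated. Atg9a, with a counted length of 3764 bases, shares 1832 exon bases with the transcript Gm29253 on its own strand. Uvrag shares 1589 with Gm45187 on the opposite strand. Neither transcript is among the counted genes. Atg4a matches the copy Atg4a-ps, which is not among the counted genes, over 2115 bases at 99.3% identity. It also matches a transcript of Syt6, which is among them, over 508 bases at 99.4%. Gabarapl2 matches 3 processed pseudogenes over 349 to 352 bases at 96.6% to 99.4%, so their counts may be split with these copies.

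Other genes of the pathway were counted over whole lists, and those named are the called genes with the largest day 6 change in a list and direction. At day 6, 35% of all tested genes were higher and 32.9% lower. For the splits with library totals given below for each list, these shares were 18.9% higher and 56.1% lower. In the fit without replicate 2 of day 6, calls over all genes came to 4416 higher and 4237 lower, against 4224 and 3967 with all libraries. Of 24 lysosomal genes described to carry a TFEB site, 19 were higher and 2 lower at day 4, beside 22.1% and 20.2% of all tested genes. With library totals 17 were higher and 2 lower at day 4, beside 17.3% and 27.0% of all tested genes. At day 6, 17 were higher and 4 lower (10 and 5 with library totals, 15 and 4 without replicate 2 of day 6). Neu1, a sialidase, was among the higher ones (log2 fold change 1.65 ± 0.18, edgeR adjusted p = 7.31e-06). Lower were Gla, the alpha-galactosidase (log2 fold change -1.82 ± 0.11, edgeR adjusted p = 4.09e-08), Naglu (log2 fold change -0.77 ± 0.12, edgeR adjusted p = 0.000102) and Scpep1, which was higher at day 4 (log2 fold change 1.27 ± 0.17, edgeR adjusted p = 8.81e-05) and lower at day 6 (log2 fold change -0.67 ± 0.17, edgeR adjusted p = 0.00437). Of 17 genes of fusion between autophagosome and lysosome 10 were higher and 1 lower (4 and 7 with library totals, 9 and 2 without replicate 2 of day 6), led by the SNAREs Vamp8 (log2 fold change 1.37 ± 0.10, edgeR adjusted p = 1.46e-07) and Stx7 (log2 fold change 1.20 ± 0.10, edgeR adjusted p = 7.87e-07) and the tethering subunit Vps18 (log2 fold change 0.98 ± 0.11, edgeR adjusted p = 4.51e-06). The tether Vps39 was the lower one (log2 fold change -0.25 ± 0.08, edgeR adjusted p = 0.0199).

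Of 16 further selective receptors 7 were higher and 4 lower at day 6 (5 and 9 with library totals, 10 and 4 without replicate 2 of day 6). The endoplasmic reticulum receptors Retreg1 and Ccpg1 were higher. Retreg1 had 81.0 ± 8.25 CPM at day 6 against 12.9 ± 4.03 CPM untreated (log2 fold change 2.65 ± 0.21, edgeR adjusted p = 4.97e-07). Ccpg1 had 553 ± 129 CPM against 144 ± 19.2 CPM untreated (log2 fold change 1.94 ± 0.18, edgeR adjusted p = 1.59e-06). Wdfy3, a large adaptor for protein aggregates, was also higher (log2 fold change 2.02 ± 0.15, edgeR adjusted p = 2.61e-07). Tex264, another receptor of the endoplasmic reticulum (log2 fold change -1.13 ± 0.12, edgeR adjusted p = 3.03e-06), was lower. So were the mitochondrial receptors Phb2 (log2 fold change -0.999 ± 0.12, edgeR adjusted p = 1.21e-05) and Bnip3 (log2 fold change -0.88 ± 0.23, edgeR adjusted p = 0.00422).

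Of 6 regulators of the PI3-kinase complex 2 were higher and 1 lower at day 6 (1 and 2 with library totals, 2 and 1 without replicate 2 of day 6). Bcl2, which binds Beclin 1, averaged 6.36 ± 2.52 CPM at day 6 against 51.0 ± 2.60 CPM untreated (log2 fold change -2.97 ± 0.27, edgeR adjusted p = 1.62e-06). Rubcnl, which encodes Pacer, averaged 18.6 ± 2.70 CPM against 3.63 ± 0.703 CPM untreated (log2 fold change 2.36 ± 0.22, edgeR adjusted p = 1.15e-06). Ambra1 was higher (log2 fold change 0.52 ± 0.07, edgeR adjusted p = 3.57e-05). Of 34 genes of mTORC1 and AMPK signalling, the nutrient sensors upstream of ULK1, 33 were tested. Of these, 16 were higher and 6 lower (16 and 8 without replicate 2 of day 6). With library totals 5 were higher and 15 lower, beside 18.9% and 56.1% of all tested genes. The mTORC1 subunit Mlst8 (log2 fold change 1.91 ± 0.19, edgeR adjusted p = 2.53e-06) and the AMPK subunits Prkag2 (log2 fold change 1.17 ± 0.12, edgeR adjusted p = 3.52e-06) and Prkab1 (log2 fold change 1.16 ± 0.19, edgeR adjusted p = 0.000142) were higher. Sesn3 (log2 fold change -1.38 ± 0.28, edgeR adjusted p = 0.000759), Akt1s1, an inhibitor of mTORC1 (log2 fold change -1.13 ± 0.14, edgeR adjusted p = 1.25e-05), and Nprl3 (log2 fold change -0.44 ± 0.17, edgeR adjusted p = 0.0383) were lower. Of 13 partners of the MiT/TFE factors and other autophagy transcription factors 5 were higher and 4 lower (2 and 7 with library totals, 6 and 5 without replicate 2 of day 6). Flcn, which holds TFEB and TFE3 in the cytoplasm together with FNIP proteins, was lower (log2 fold change -0.82 ± 0.07, edgeR adjusted p = 8.5e-07). Its partners Fnip1 (log2 fold change 1.05 ± 0.15, edgeR adjusted p = 3.78e-05) and Fnip2 (log2 fold change 0.68 ± 0.14, edgeR adjusted p = 0.001) and the calcineurin subunit Ppp3ca (log2 fold change 1.11 ± 0.16, edgeR adjusted p = 5.89e-05) were higher. Tfec, a relative of TFEB (log2 fold change -1.12 ± 0.20, edgeR adjusted p = 0.000327), and Foxo1 (log2 fold change -0.86 ± 0.28, edgeR adjusted p = 0.018) were lower. Of 4 relatives of the ATG2 and WIPI proteins 1 was higher (Tmem41b, log2 fold change 0.46 ± 0.15, edgeR adjusted p = 0.0162; -0.06 with library totals) and 1 lower (Wdr45, log2 fold change -0.68 ± 0.12, edgeR adjusted p = 0.000353). All named genes of these lists kept their day 6 call without replicate 2 of day 6.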

How the data were processed

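The deposited files hold whole-number read counts per Entrez gene and a gene length, 1 file for each of the 12 libraries, with no normalization by the authors. The submitters' processing notes name the mm10 genome and, in no order, limma 3.22.0, edgeR 3.8.2, featureCounts and CASAVA 1.8.2. Which aligner was used, and whether counting used strand, is not given in the sources used here. Of 27179 identifiers, 25275 were matched to RefSeq (GRCm38.p6) for symbols and positions, and the 1904 without a match took 0.493% to 1.07% of each library's counts. Overlapping exons and near-identical copies (over at least 200 bases at 95% identity or more, BLAST 2.17.0) were looked up in GENCODE vM21 of GRCm38.

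The members, gene lists, tests and genes to be named were chosen with earlier results of these data known. Genes were kept by filterByExpr (12057), scaled by TMM factors (1.02 to 1.15 in untreated, day 2 and day 4 libraries; 0.737 to 0.847 at day 6) and fitted in 1 model over all 12 libraries with group as the only term. The test was two-sided, in edgeR 4.0.16 under R 4.3.3 (glmQLFit with robust dispersion and glmQLFTest, 8 residual degrees of freedom, biological coefficient of variation 14.3%). Calls were made at a Benjamini-Hochberg adjusted p under 0.05 over all 12057 genes. CPM values were scaled to the TMM-adjusted library size, and RPKM is CPM per kilobase of the deposited gene length. The procedure was tested on simulated data in which few genes changed, equally often up and down. That simulation therefore cannot speak to the choice of scaling. Libraries held 4918920 to 7356166 counts, a depth that bounds counting error only, and no member was near the 3-count floor.

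All 36 members are reported. The 12 with the largest day 6 change are given in every library, together with Spi1 as the targeted gene and with Sqstm1 and Optn, which were added after their values were seen. Other pathway genes are the up to 3 called genes of each list and direction with the largest day 6 change, at 10 CPM or more on average. Some genes that this rule names are not reported here. The alternatives were RLE and upper-quartile factors, library totals, no filter, a filter of 5 CPM in 3 libraries, DESeq2 1.42.0, the replicate number as a block, fits restricted to each pair of groups, and removal of 1 library at a time.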

Additional observations from a re-analysis of the deposited data

How the results depend on the processing

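Scaling was the choice that changed most. RLE factors changed none of the 222 log2 fold changes of the 36 members and Spi1 in direction or call, and a filter of 5 CPM in 3 libraries changed 1. With upper-quartile factors, higher and lower calls came to 4 and 11 at day 4, lower calls to 6 for day 4 against day 2 and 6 for day 6 against day 4, and higher calls to 13 for day 6 against day 2. With library totals, higher and lower calls came to 4 and 12 at day 4, 10 and 16 at day 6, 2 and 9 for day 4 against day 2, 6 and 14 for day 6 against day 4, and 7 and 14 for day 6 against day 2. Among the log2 fold changes called under TMM factors or under library totals, 28 turned negative under library totals, which also lower the median of all genes. Sign changes of differences called under neither scaling are not counted. At day 6 against untreated these were Rb1cc1 -0.34, Atg16l1 -0.13, Atg4b -0.24, Ulk2 -0.11, Becn1 -0.029, Atg2a -0.48, Atg7 -0.041, Uvrag -0.33, Map1lc3b -0.33 and Atg4a -0.10. At day 6 against day 4 they were Atg16l1 -0.13, Sqstm1 -0.37, Becn1 -0.014, Nbr1 -0.24, Atg12 -0.34, Ulk1 -0.015, Map1lc3b -0.25 and Atg4d -0.092. At day 6 against day 2 they were Rb1cc1 -0.24, Atg16l1 -0.20, Atg4b -0.14, Sqstm1 -0.51, Ulk2 -0.16, Becn1 -0.083, Nbr1 -0.49, Atg2a -0.53, Ulk1 -0.21 and Uvrag -0.41.

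Fitting only the groups compared gave 2 higher and 2 lower members at day 2 and 6 lower for day 4 against day 2. Over all genes those fits called 241 higher and 171 lower at day 2, against 126 and 49 in the main fit. For day 4 against day 2 they called 2304 and 2002, against 1812 and 1230. DESeq2 gave 18 higher and 8 lower members at day 6, beside 4124 and 3922 of all genes. Leaving out 1 library at a time gave 0 to 2 higher and 1 lower members at day 2, 4 to 8 higher and 3 to 8 lower at day 4, and 17 to 21 higher and 7 to 8 lower at day 6. The same fits gave 3 to 5 higher and 1 to 5 lower for day 4 against day 2, 13 to 19 higher and 2 lower for day 6 against day 4, 16 to 21 higher and 6 to 8 lower for day 6 against day 2, and 24 to 29 over all groups. Calls over all genes moved in these fits too. They came to 27 to 378 higher and 11 to 225 lower at day 2. At day 4 they were 2173 to 3103 and 1670 to 3040, and at day 6 3960 to 4416 and 3663 to 4237. For day 4 against day 2 they were 1268 to 2311 and 581 to 1882. For day 6 they were 2308 to 3422 and 1988 to 3431 against day 4, and 3565 to 4175 and 3242 to 3957 against day 2. The lowest member counts at day 4, 4 higher and 3 lower, came without replicate 3 of day 4. Over all genes that fit called 2173 higher and 1705 lower, against 2667 and 2440 with all libraries. The cause of these changes was not tested.

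The replicate numbers did not pair the libraries: residuals of the 18 same-numbered pairs correlated by 0.00567 on average (-0.172 to 0.29), with 5 pairs over 0.1 and 4 of 12 libraries closest to their own number. With the number as a block, 0 members were higher at day 2 (Tfe3, edgeR adjusted p = 0.0550), 18 were higher and 9 lower at day 6, and 28 differed over all groups. Over all genes the block gave 102 higher and 39 lower at day 2, against 126 and 49 without it. At day 6 it gave 4144 and 3922, against 4224 and 3967. Calls lost under the block were Atg4a at day 6, Optn and Uvrag for day 4 against day 2, Atg16l1 for day 6 against day 4, and Rb1cc1 and Optn for day 6 against day 2, and Atg10 was gained at day 6 (edgeR adjusted p = 0.0472).

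With 3 libraries a group and no second leukemia, the calls of small differences such as those of Atg4a, Atg14 and Uvrag lie near the threshold. Gate, days on Dox and PU.1 level moved together in every comparison, and counting error weighs most on the least abundant members, such as Atg16l2 (6.40 CPM in its lowest library).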
